A study of Mus musculus with 10 samples.

Results

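The 8 genes described here, Tnmd, Scx, Thbs4, Comp, Mkx, Chad, Cilp2 and Kera, are genes of tendon and of the junction where muscle fibres meet tendon. They were chosen by name, with earlier results of these data known, out of 39179 genes counted in each sample. All 8 were found in the count tables. Read counts were measured in the tibialis anterior, a shin muscle of mostly fast fibres, by sequencing total RNA of 10 mice. The Control group held 4 mice that received PBS in both flanks and carried no tumor. The LLC group held 6 mice injected under the skin of both flanks with Lewis Lung Carcinoma (LLC) cells, a mouse lung cancer line whose tumors cause cachexia, in which a host with cancer loses muscle and body weight.

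Both groups were of 1 strain, but the sources differ on which. The sample labels name C57BL/6J mice injected at 10 weeks and give a tumor development of 23 days for LLC and 0 days for Control, while the series text names C57BL/10 males of 8 weeks studied after 22 days. Each sample is a separate mouse that gave 1 library. The dissected muscle was sampled, and neither the labels nor the methods say how much tendon was left on it. In such bulk RNA, fewer cells of a type and less RNA per cell cannot be told apart.

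Tendon is a dense matrix of collagen fibrils laid down by tenocytes, fibroblast-like cells that arise under the transcription factor Scleraxis (Scx) and keep their identity with Mohawk (Mkx). Tenomodulin (Tnmd), a membrane glycoprotein of mature tenocytes, is the most specific marker of the lineage. Thrombospondin-4 (Thbs4), cartilage oligomeric matrix protein (Comp), chondroadherin (Chad), cartilage intermediate layer protein 2 (Cilp2) and keratocan (Kera) are secreted matrix proteins. Of these, Thbs4 is also made by muscle fibres and is needed for a firm myotendinous junction, so it marks more than tendon.

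Scx is a basic helix-loop-helix factor, a class that binds the E-box CANNTG, so the bases before the start of the members with a RefSeq promoter entry were searched for it on both strands. Entries for 5 of the 8 members were found in RefSeq (build GRCm38.p6). In the 250 bases before the RefSeq start, Thbs4, Chad and Cilp2 each had 1 E-box, while Tnmd and Kera had 0. The stretches of Cilp2 and Kera lie wholly within the span of the gene in GENCODE, so they are upstream of the RefSeq start only. Of 27025 promoters of the same length, 66.04% had at least 1, so E-boxes were common in promoters at large. The sequences of 3 members are shown 5′ to 3′ on the strand of the gene, with the E-box in capitals, because they cover the most tendon-specific member, the most abundant one and a rare matrix gene. The stretches are chrX:133850758-133850979 on the plus strand for Tnmd, chr13:92794819-92795068 on the minus strand for Thbs4 and chr11:94564797-94565046 on the plus strand for Chad. That of Tnmd ends 28 bases short of the RefSeq start, at the start of the gene in GENCODE.
Tnmd: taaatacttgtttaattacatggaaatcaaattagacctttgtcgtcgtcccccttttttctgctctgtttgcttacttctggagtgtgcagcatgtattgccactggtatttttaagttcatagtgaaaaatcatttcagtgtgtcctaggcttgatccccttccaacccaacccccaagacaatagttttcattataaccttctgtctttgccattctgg
Thbs4: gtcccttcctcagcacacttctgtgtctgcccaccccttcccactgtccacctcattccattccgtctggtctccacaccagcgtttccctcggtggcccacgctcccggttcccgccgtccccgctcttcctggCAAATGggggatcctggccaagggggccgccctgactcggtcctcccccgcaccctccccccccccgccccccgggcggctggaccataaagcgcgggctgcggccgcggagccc
Chad: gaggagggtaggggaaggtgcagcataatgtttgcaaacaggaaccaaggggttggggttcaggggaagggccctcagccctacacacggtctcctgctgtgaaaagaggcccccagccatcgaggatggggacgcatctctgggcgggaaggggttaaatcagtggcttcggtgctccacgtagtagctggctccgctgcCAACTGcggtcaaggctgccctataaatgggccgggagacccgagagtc

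The E-box of Thbs4 began 115 bases and that of Chad 49 bases before the start. The Chad stretch also held the letters TATAAA once, which 12.97% of all promoters held on either strand. These are matches of letters only, and binding at them was not measured.

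Sequencing depth ran from 16693209 to 21303084 counts per sample. The smallest level taken as detected, 3 counts, corresponded to 0.141 to 0.180 CPM (reads relative to the total of the library, in the values below also scaled by TMM factors), and it covers counting error only because amplified reads are not independent molecules. LLC 1 stood apart from the other LLC libraries. Its summed level of 6 fast fibre markers was 66855 CPM, against 90184 to 103739 in the other LLC samples and 90119 to 95181 in Control. The values of the tested members are given with and without LLC 1. These markers were abundant in all 10 samples, as the labelled tissue would have them, and 0 of the 6 passed the threshold used below.

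The first comparison asked whether transcripts of tendon cells and their matrix differ between LLC and Control muscle. The matrix members and Tnmd were lower in LLC, several of them to a level near the limit of detection, whereas Scx did not pass the test. Of the 8 members, 6 held enough counts to be tested across all genes, which was done with edgeR's quasi-likelihood method and p-values adjusted by Benjamini-Hochberg. Of these 6, 5 passed the threshold (adjusted p of at most 0.05 with a change of 1.5-fold or more), and all 5 were lower in LLC. Across the 12690 genes tested, 715 passed (5.63%), 506 of them lower (3.99%) and 209 higher (1.65%). Among 1032 genes with an average below 0 on the log2 CPM scale, the range in which Tnmd, Comp, Chad and Cilp2 lie, 7.66% were lower. These rare members were kept by the filter through their Control counts alone, as their LLC counts were all under its minimum of 10. A member as low in Control as in LLC would not have been tested, so the 5 of 6 is not a share of all the members. The median log2 fold change of the 6 tested members was -2.62, against 0.00193 for all genes tested.

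Counted without a filter, 6 of the 8 members were lower in every LLC sample than in any Control sample, namely Tnmd, Cilp2, Kera, Chad, Comp and Thbs4. Such a gap was found for 9.57% of all tested genes, and 6.40% had the opposite gap. For each of these 6 members an exact permutation test over all 210 arrangements of the group labels gave a two-sided p of 0.00952, the smallest the design allows. Groups without overlap always give this value, so the test adds nothing to the gap itself.

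**Figure D1:**
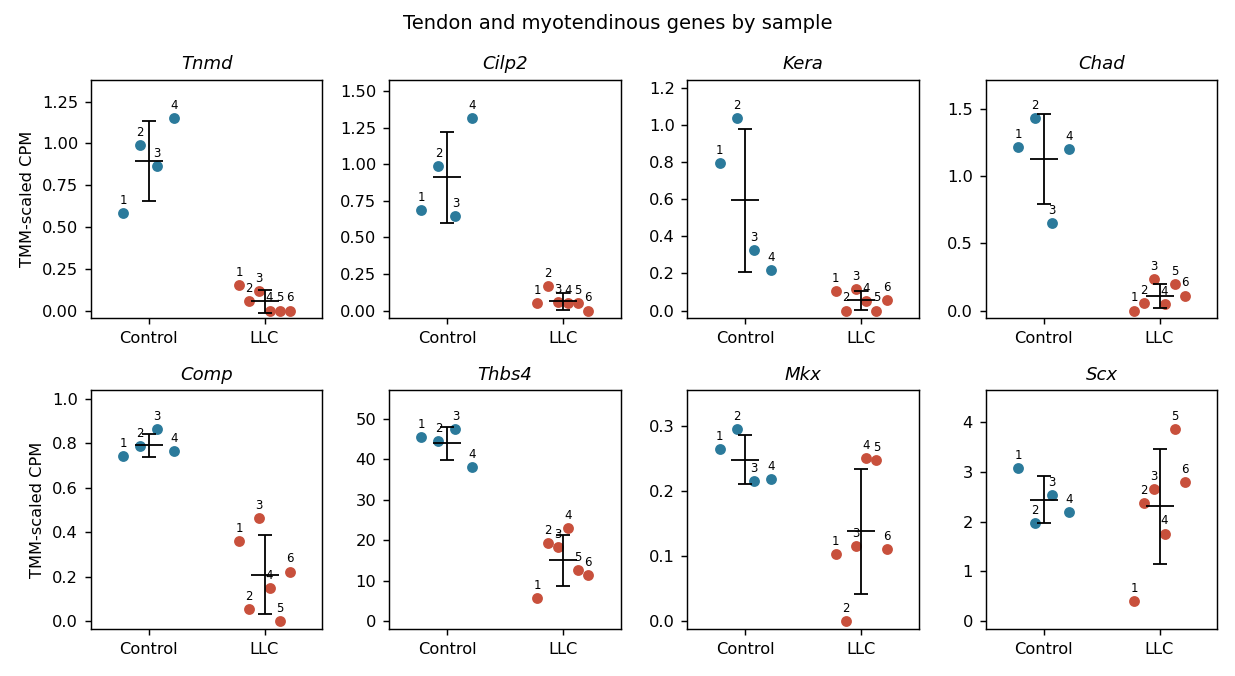
Level of each of the 8 members in TMM-scaled CPM (y axis, a separate scale for each gene) in 4 Control and 6 LLC samples (x axis). Each point is 1 mouse, numbered by replicate, and the bars show mean ± SD; the 2 groups overlap for Mkx and Scx only, and LLC 1 is the lowest point for Scx, Thbs4 and Chad and the highest LLC point for Tnmd.

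Tnmd (ENSMUSG00000031250, chromosome X, 133850980 to 133865577, plus strand, GRCm38 as are the coordinates that follow) was detected in all 4 Control samples. Control 1 to 4 had 0.583, 0.988, 0.865 and 1.15 CPM, from 11, 20, 16 and 21 reads. The LLC samples had a lowest value of 0, a median of 0.0282 and a highest of 0.154 CPM. Tnmd was at 0 in LLC 4, LLC 5 and LLC 6, and no LLC sample exceeded 3 reads. The mean in LLC was 6.07% of that in Control, a log2 fold change of -3.91 ± 0.53 (SE, adjusted p = 0.00122, edgeR with Benjamini-Hochberg adjustment). With 6 LLC reads in all, the size of the fold is loosely set.

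Cilp2 (ENSMUSG00000044006, chromosome 8, 69880369 to 69887687, minus strand) encodes a secreted protein of the cartilage intermediate layer family that is made in tendon and cartilage. Its level was 0.689, 0.988, 0.649 and 1.31 CPM in Control 1 to 4. In LLC it ran from 0 to 0.169 CPM with a median of 0.0509. All LLC samples lay far below the lowest Control sample, and LLC 2, with 3 reads, stood above the others, which had 0 or 1. The log2 fold change was -3.73 ± 0.44 (SE, adjusted p = 0.000581, edgeR with Benjamini-Hochberg adjustment), and Cilp2 was the only member whose call held in each of 20 alternative analyses.

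Chad (ENSMUSG00000039084, chromosome 11, 94565047 to 94569127, plus strand) encodes a leucine-rich repeat protein that binds collagen and cells through integrins. Control 1 to 4 had 1.22, 1.43, 0.649 and 1.21 CPM. The LLC samples ran from 0 in LLC 1 to 0.232 CPM in LLC 3, with a median of 0.0841. Even the highest LLC sample was below the lowest Control sample, and the log2 fold change was -3.32 ± 0.45 (SE, adjusted p = 0.00115, edgeR with Benjamini-Hochberg adjustment).

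Kera (ENSMUSG00000019932, chromosome 10, 97606879 to 97613692, plus strand) encodes a keratan sulfate proteoglycan of the small leucine-rich family, known from cornea and also made in tendon. It did not pass the filter on low counts and was not among the genes tested. The Control samples were themselves uneven, with 0.794, 1.04, 0.324 and 0.219 CPM, while LLC ran from 0 to 0.116 CPM with a median of 0.0531. Control 1 and 2 were well above Control 3 and 4, and all 6 LLC samples were at or under the 3-count limit. Fitted without the filter, Kera had a log2 fold change of -3.32 ± 0.63 (SE, adjusted p = 0.00673, edgeR with Benjamini-Hochberg adjustment over 21983 genes, of which 2.49% were lower).

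Comp (ENSMUSG00000031849, chromosome 8, 70373558 to 70382066, plus strand) encodes a pentameric thrombospondin that helps assemble collagen fibrils in tendon and cartilage. It was even across Control, with 0.741, 0.790, 0.865 and 0.767 CPM. In LLC it ran from 0 in LLC 5 to 0.463 CPM in LLC 3, with a median of 0.187. The groups did not overlap, but the LLC values were scattered and Control held only 14 to 16 reads per sample. The log2 fold change was -1.91 ± 0.48 (SE) and of the members' calls its own was lost most often, in 10 of 20 alternative analyses, with an edgeR adjusted p (Benjamini-Hochberg) of 0.0373 that was lost when any 1 Control sample, LLC 2, LLC 4 or LLC 6 was left out (adjusted p of 0.0147 to 0.107 over the 10 such fits).

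Thbs4 (ENSMUSG00000021702, chromosome 13, 92751590 to 92794818, minus strand), also a pentameric thrombospondin, was by far the most abundant member. Per kilobase of exon it stood at 13.3 ± 1.22 RPKM in Control (SD, n = 4), against 1.22 ± 0.239 for Scx and less than 1 for every other member. Control 1 to 4 had 45.4, 44.5, 47.5 and 38.2 CPM, while LLC ran from 5.81 in LLC 1 to 23.0 CPM in LLC 4, with a median of 15.4. The Control samples lay close together and all LLC samples fell below them, LLC 1 furthest. The log2 fold change was -1.54 ± 0.28 (SE, adjusted p = 0.00770, edgeR with Benjamini-Hochberg adjustment) with LLC 1 and -1.37 without it, and the call held in both. With 697 to 902 reads in each Control sample, this fold is better determined than those of the rare members.

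In the direct comparison of LLC with Control, neither of the transcription factors showed a difference that passed a test. Scx (ENSMUSG00000034161, chromosome 15, 76457452 to 76459458, plus strand) had 3.07, 1.98, 2.54 and 2.19 CPM in Control 1 to 4. In LLC it ran from 0.411 in LLC 1 to 3.87 CPM in LLC 5, with a median of 2.52. The groups overlapped in part. LLC 2, LLC 3 and LLC 6 lay within the Control range, LLC 5 above it and LLC 4 just below it, and LLC 1 was far below the rest, at 8 reads against 35 to 78 in the other LLC samples. The log2 fold change was -0.08 ± 0.40 (SE, adjusted p = 0.909, edgeR with Benjamini-Hochberg adjustment), and without LLC 1 it was 0.15, also short of the threshold. The exact permutation test, two-sided, gave p = 0.857.

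Mkx (ENSMUSG00000061013, chromosome 18, 6934518 to 7004780, minus strand) was too rare to be tested across all genes, and 201 bases of its exons overlap another gene on the same strand. It had 4 to 6 reads in each Control sample, at 0.265, 0.296, 0.216 and 0.219 CPM, and 0 to 5 in LLC, at 0 to 0.252 CPM with a median of 0.114. LLC 4 and LLC 5 reached the Control level while the other 4 LLC samples were below it. Without the filter the log2 fold change was -0.78 ± 0.53 (SE, adjusted p = 0.434, edgeR with Benjamini-Hochberg adjustment), so a difference was not detectable at this depth.

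The order of the members by the size of the fall, given as the LLC mean in percent of the Control mean, was Tnmd at 6.07, Cilp2 at 6.94, Kera at 9.12, Chad at 9.60, Comp at 26.4, Thbs4 at 34.4, Mkx at 55.5 and Scx at 94.6. Neighbours among the first 4, and Comp and Thbs4, did not differ beyond the standard errors of their log2 fold changes. Summed, the members other than Thbs4 stood at 6.11 to 7.51 CPM in Control and at 1.18 to 4.36 CPM in LLC, with means of 7.01 ± 0.628 and 2.94 ± 1.13 (SD, n = 4 and 6). Scx, at a mean of 2.31 CPM, made up most of the LLC mean. Within the groups the tested members did not rise and fall as 1 block. After subtraction of each group mean, Pearson's r between pairs of members over the 10 samples ran from -0.65 for Tnmd and Scx to 0.69 for Scx and Chad, a description over libraries in which most members have few reads.

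The next question was how far the other genes of tendon went the same way, using lists of genes that were also chosen with earlier results of these data known. Of 15 other genes of tendon matrix and tendon cells, 15 were tested and 14 were lower, with a median log2 fold change of -2.13. They included both chains of type I collagen, the main fibril of tendon and of the connective tissue within muscle, Col1a1 (-3.08 ± 0.29, SE) and Col1a2 (-2.77 ± 0.33), and the fibril-binding proteoglycans Fmod (-2.55 ± 0.13) and Dcn (-1.36 ± 0.12). The exception was Cilp, the relative of Cilp2, at -0.82 ± 0.43 (adjusted p = 0.234, edgeR with Benjamini-Hochberg adjustment). The summed level of the list was 397 to 485 CPM in Control and 86.3 to 150.2 CPM in LLC. Most of these genes are also made by the interstitial fibroblasts of muscle, so the list is not specific to tendon.

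Close relatives of the members gave a mixed picture. Of 12 such genes 9 were tested and 5 were lower, with a median log2 fold change of -1.10. The proteoglycan relatives of Kera were among them, with Lum at -2.54 ± 0.34, Ogn at -1.36 ± 0.16 and Prelp at -1.11 ± 0.11 (SE), as were the thrombospondins Thbs3 at -1.72 ± 0.37 and Thbs2 at -1.10 ± 0.29. Thbs1 (-0.49 ± 0.27), Chadl, the relative of Chad (-0.12 ± 0.46), Tcf15, the relative of Scx (-0.47 ± 0.16), and Cilp did not pass. Cnmd, the cartilage relative of Tnmd, had 1 read in Control and 6 in LLC in all.

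No gene listed for the muscle side of the junction passed the threshold. All 17, among them Itga7, Dmd, Des, Nrap and Xirp2, were tested with 0 passing, beside 5.63% of all genes tested. How much of their RNA came from the junction rather than from the rest of the fibre was not measured. Des, Xirp2 and Nrap were the most abundant of them, with Control means of 2315, 1720 and 1470 CPM. The median log2 fold change of the 17 genes was 0.05. Their log2 fold changes ran from -0.67 to 0.84. When the unadjusted p was used, 1 passed in edgeR's test. This was Col22a1, the collagen of the myotendinous junction, singled out after its values were seen. It stood at 16.5 to 20.5 CPM in Control and at 4.37 to 14.7 CPM in LLC with no overlap, but it was short of the threshold at a log2 fold change of -0.67 ± 0.26 (SE, adjusted p = 0.128, edgeR with Benjamini-Hochberg adjustment). Without LLC 1 the log2 fold change of Col22a1 was -0.49 with an adjusted p of 0.0145 in edgeR (0.0145 to 0.266 with each sample left out), a change of less than 1.5-fold. LLC 1 had the lowest Col22a1 and, at 11063 CPM against 6756 to 8013 in the other LLC samples, the highest sum of the list.

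**Figure D2:**
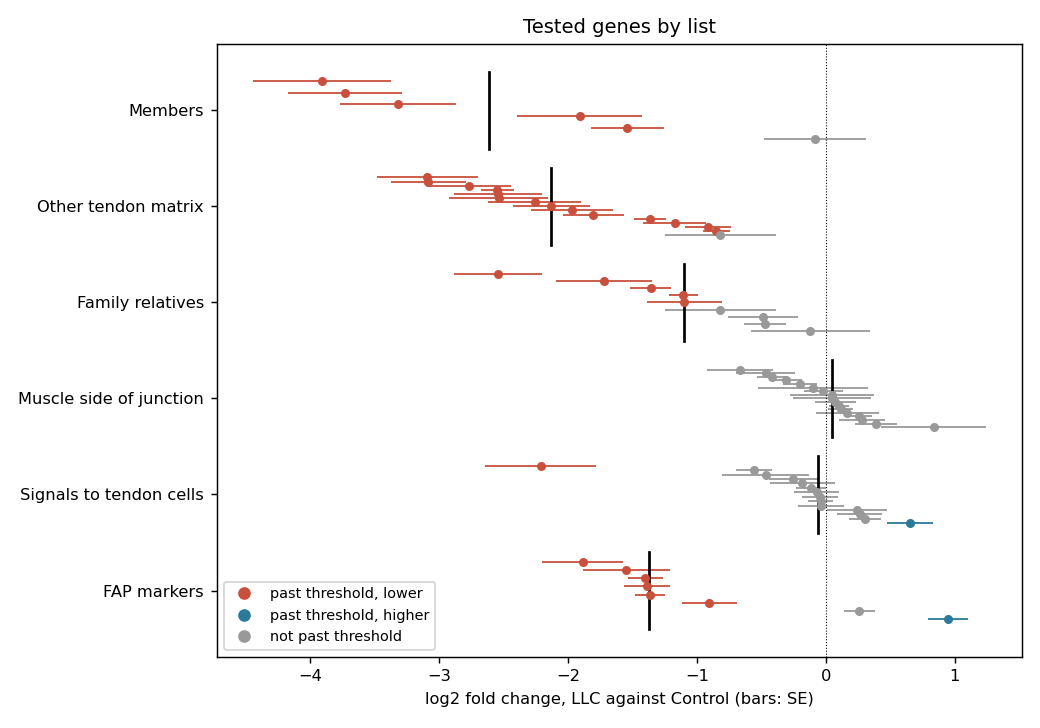
Log2 fold change of LLC against Control (x axis) for each tested gene of 6 gene lists (y axis), with bars for the SE and a black line at the median of the list. Red points were lower and blue points higher past the threshold of edgeR's quasi-likelihood test, grey points were not. The 5 members lower in LLC lie from -3.91 to -1.54, while the genes listed for the muscle side of the junction are centred near 0.

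Most of the signals known to act on tendon cells did not pass the threshold. Tendon cells answer to TGF-beta and related ligands and, under load, to Egr1, a transcription factor that drives collagen and Scx. Of 18 listed genes 14 were tested, and 1 was lower and 1 higher, beside 3.99% lower and 1.65% higher over all genes tested. Egr1 fell from a range of 4.59 to 25.7 CPM in Control to 1.08 to 3.97 CPM in LLC, a log2 fold change of -2.21 ± 0.43 (SE, adjusted p = 0.0101, edgeR with Benjamini-Hochberg adjustment). The receptor gene Tgfbr1 was higher at 0.65 ± 0.18 (SE, adjusted p = 0.0478, edgeR with Benjamini-Hochberg adjustment), a call lost in 8 of the 10 fits that left out 1 sample. The ligand gene Tgfb1 was at -0.56 ± 0.14 (SE, adjusted p = 0.0331, edgeR with Benjamini-Hochberg adjustment). Its groups did not overlap, and it missed only the 1.5-fold change. Tgfb2 (-0.03) and Tgfb3 (-0.04) overlapped between the groups. Counted without a filter, 3 of the 18 were lower in every LLC sample than in any Control sample, and 2 had the opposite gap. Over all tested genes these shares were 9.57% and 6.40%. Gdf5, which was not tested, had 2 reads in Control and 57 in LLC in all, with an LLC median of 0.107 and a highest value of 2.06 CPM. The median log2 fold change of the list was -0.06.

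The following comparison set the members against single reference genes of the same sample. Against Col1a1 it asked whether a member fell by as much as the main collagen. The differences were taken on the log2 CPM scale with 2 prior counts and tested with limma over all genes, so the folds of rare members are drawn toward 0. Every gene's difference holds the noise of the same reference gene, which limma treats as separate for each gene. The intervals and p-values of both reference comparisons, against Col1a1 and Pdgfra, are therefore likely too confident. Thbs4 (1.53, 95% interval 0.78 to 2.27), Comp (1.46, 0.44 to 2.48) and Scx (2.90, 2.04 to 3.75) were higher in LLC relative to Col1a1, with adjusted p-values of 0.000177, 0.00623 and 3.2e-08 in limma. These 3 of 6 calls stand beside 99.9% of all genes higher and 0% lower on this measure, since Col1a1 itself was lower by its log2 fold change given above. Tnmd (0.48, -0.51 to 1.46), Chad (0.60, -0.35 to 1.54) and Cilp2 (0.59, -0.32 to 1.50) were not told apart from Col1a1, and with 0.5 prior counts their differences turned to -0.73, -0.19 and -0.35. With the smaller prior count Comp was at 0.88 and no longer passed (adjusted p = 0.171 in limma).

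Against Pdgfra, a receptor that marks fibro-adipogenic progenitors (FAPs), the interstitial fibroblasts of muscle, the question was whether a member fell further than a marker of those cells. Tnmd (-1.33, 95% interval -2.08 to -0.59), Cilp2 (-1.22, -1.89 to -0.55) and Chad (-1.21, -2.02 to -0.41) were lower in LLC relative to Pdgfra, with adjusted p-values of 0.00167, 0.00147 and 0.00601 in limma. Across all genes 0.189% were lower and 93.2% higher on this measure. These 3 members were kept by the filter through their Control counts alone, so that share is not a like background for them. With 0.5 prior counts they were at -2.53 for Tnmd, -2.15 for Cilp2 and -1.99 for Chad, so the prior count sets the size of the difference. The fall was not particular to the members. Col1a1 (-1.81, adjusted p = 1.3e-05 in limma) and Fmod (-1.15, adjusted p = 5.5e-05 in limma) were also lower relative to Pdgfra, while Dcn (0.0023) was not. Thbs4 (-0.28, -0.91 to 0.34) and Comp (-0.35, -1.29 to 0.58) were not told apart from Pdgfra. Scx was higher than Pdgfra by 1.09 (0.20 to 1.97, adjusted p = 0.0205 in limma), a call lost without Control 4 (adjusted p = 0.0611) and without LLC 6 (adjusted p = 0.0652). Without LLC 1, its lowest sample, Scx stood higher than Pdgfra by 1.50 (adjusted p = 1.6e-08 in limma, the lowest of the 10 fits that left out 1 sample). The members' other calls on either measure held without LLC 1. Relative to Pdgfra they were at -1.48 for Tnmd, -1.20 for Cilp2 and -1.02 for Chad. Relative to Col1a1 they were at 1.56 for Thbs4, 1.09 for Comp and 3.08 for Scx. Pdgfra itself was lower in LLC, so a gene at the same CPM in both groups is higher on this measure.

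**Figure D3:**
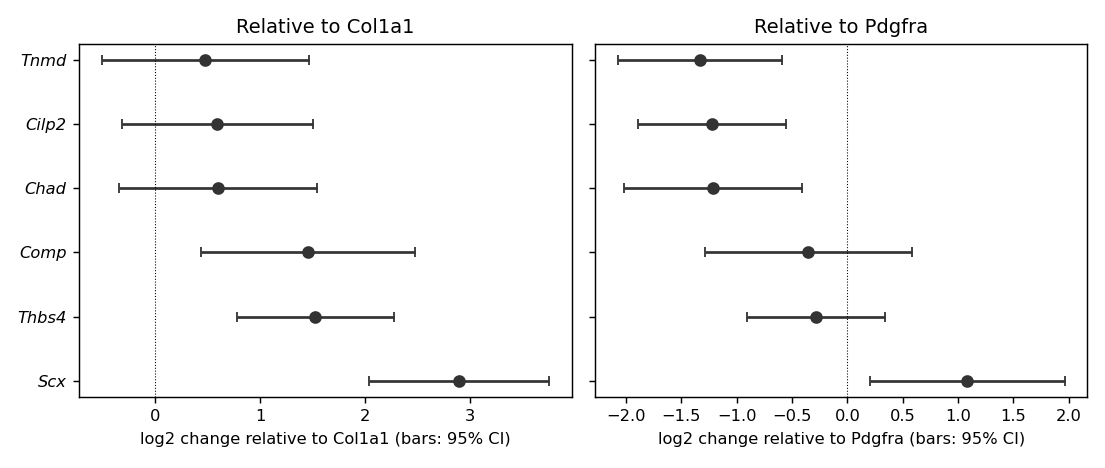
Difference between LLC and Control in each tested member's log2 level relative to Col1a1 (left) and to Pdgfra (right), with the x axis in log2 units, the 6 members on the y axis and bars for the 95% interval. Relative to Pdgfra, the intervals of Tnmd, Cilp2 and Chad lie below 0 and that of Scx above it, while relative to Col1a1 those of Comp, Thbs4 and Scx lie above 0.

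The amount of tendon left on each dissected muscle was not recorded, so marker lists of the tissues that could come with it were examined. Bone markers were at or near 0 in most libraries, and 0 of 4 were tested. Ibsp, a bone matrix gene, was the exception, with 3, 22, 30 and 0 reads in Control 1 to 4 and at most 1 in any LLC sample, and the summed bone markers ran from 0.0548 to 1.95 CPM in Control and from 0 to 0.168 CPM in LLC. Among cartilage markers the defining genes Acan, Matn1, Matn3 and Hapln1 had at most 2 reads over any group and Col2a1 had 7 in each, 2 of 7 were tested (Sox9 and Col9a1) and 0 passed, and the sum was 6.06 to 6.86 CPM in Control against 2.52 to 5.95 in LLC. With Control 2 and Control 3 left out together, an analysis chosen after their Ibsp reads were seen, Chad (-3.42) and Cilp2 (-3.87) still passed in edgeR, and Tnmd was under the filter. Thbs4 (-1.47, adjusted p = 0.118, within a range of 2.0e-05 to 0.151 over its 21 alternatives) and Comp (-1.84, adjusted p = 0.290, within 0.00304 to 0.290 over its 20) did not pass there in edgeR, against -1.54 and -1.91 over all samples, and 158 genes passed in all. With LLC 1 left out as well, Tnmd (-4.48) and Thbs4 (-1.30) passed in edgeR and Comp (-2.08) did not. The part of uneven tendon content in the lower members was not tested.

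Markers of other stromal cells were lower in part. Of 8 FAP markers 6 were lower, among them Pdgfra (-1.40 ± 0.14, SE), Smoc2 (-1.36 ± 0.12) and Cxcl14 (-1.39 ± 0.18), while Ly6a rose by 0.95 ± 0.15 and Cd34 did not pass. Their sum overlapped between the groups, at 133 to 159 CPM in Control and 110 to 149 CPM in LLC. Ly6a and Cd34 were the largest parts of the LLC sum, so it does not show the fall of the other 6. Ly6a had means of 27.0 CPM in Control and 52.2 in LLC, and Cd34 had 35.1 and 42.0. Vessel wall markers were lower for 3 of 5 tested (Rgs5, Pdgfrb and Cspg4), with sums of 407 to 454 CPM in Control and 235 to 334 CPM in LLC. Adipocyte markers had 2 of 4 tested and 0 past the threshold, at 4.82 to 19.7 CPM in Control and 4.97 to 12.7 in LLC. Lower transcripts were therefore not limited to tendon lists, and the part of these cell types in the members' values was not tested.

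**Figure D4:**
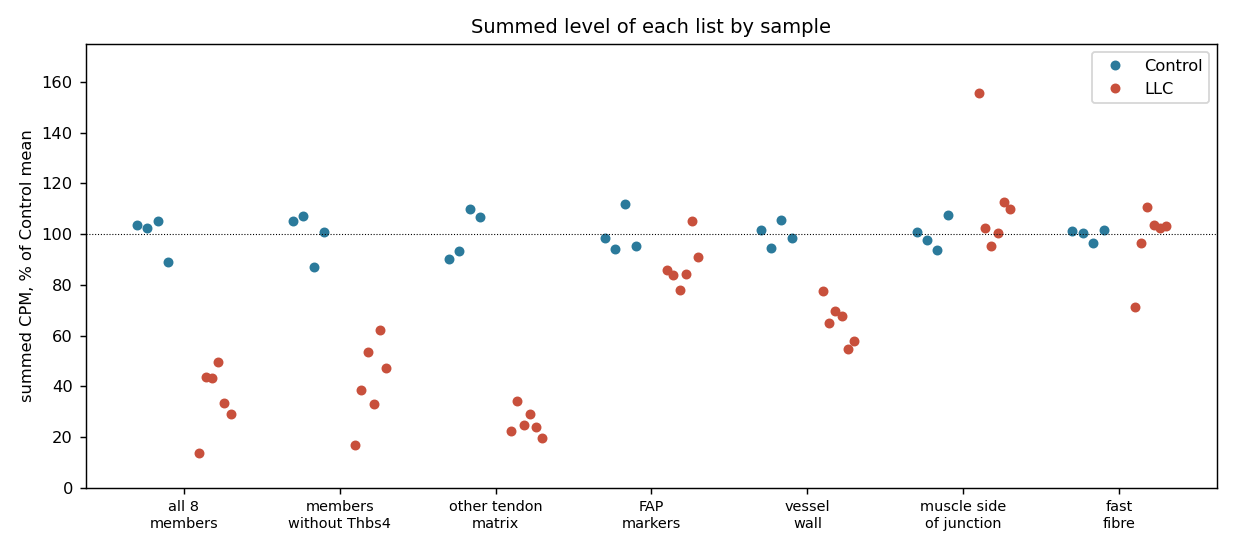
Summed CPM of 7 gene lists in each sample, in percent of the mean of the 4 Control samples (y axis), with 1 point per mouse in replicate order from left to right. The LLC samples lie at 19.6 to 34.1% for the other tendon matrix genes, the FAP markers overlap between groups, and LLC 1 is highest for the muscle side of the junction and lowest for fast fibre markers. The largest parts of the FAP sum in LLC are Ly6a, which was higher, and Cd34, which did not pass the threshold.

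The lower members were also found with other tools. The DESeq2 Wald test, with 5.24% of its genes lower, gave log2 fold changes of -4.05 for Tnmd, -3.85 for Cilp2, -3.39 for Chad, -1.93 for Comp and -1.53 for Thbs4, all past the threshold. Without LLC 1 the same 5 members passed in edgeR's test, at -4.53 for Tnmd, -3.68 for Cilp2, -3.06 for Chad, -2.14 for Comp and -1.37 for Thbs4.

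The genes whose variation within the groups was most like that of the tested members were sought over all tested genes. The measure was Pearson's r over the 10 samples between each gene's log2 CPM, less its group mean, and the mean standardized profile of the 6 members. The 8 highest were mt-Tw at 0.94, Gcat and Mccc2 at 0.93, Rwdd3 at 0.92, Mvk at 0.91, Kdm8 and Rab23 at 0.89 and Crlf3 at 0.88, and none of them passed the threshold between the groups. Reference genes of tendon matrix and junction lay lower, with 0.67 for Col22a1, 0.53 for Col1a1, 0.49 for Fmod and -0.40 for Dcn. The FAP marker Pdgfra was at 0.24. These values describe 10 libraries and the few reads behind most members. The 8 genes were picked as the highest of 12684, and the level that chance would reach was not worked out. The profile is a mean over members that did not rise and fall together.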

How the data were processed

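Total RNA of the tibialis anterior of 4 Control and 6 LLC mice was extracted with TRIZOL and sequenced from both ends as strand-specific total RNA libraries in 1 lane. The authors mapped the reads to mm10 with TopHat2 and counted them per gene with HTSeq at default settings on RefSeq genes, and deposited whole-number counts that are not normalized, 1 table per sample. The tables list Ensembl identifiers, so the annotation and the strand setting behind the counts are not known, which bears on genes that overlap another one. Of 39179 identifiers, 37607 were matched to a symbol.

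The members and the gene lists were chosen with earlier results of these data known. The 2 groups were compared in edgeR (version 4.0.16, R 4.3.3) by its quasi-likelihood method with TMM factors, filterByExpr at its count minimum of 10, group as the only term and Benjamini-Hochberg adjustment over all 12690 tested genes. A call needed an adjusted p of 0.05 or less and a 1.5-fold change. The SE was derived from the F statistic. CPM values are TMM-scaled, and RPKM divides them by the exon length in GENCODE. Differences from Col1a1 or Pdgfra used limma (limma 3.58.1) with trend on log2 CPM with a prior count of 2. Single values were compared by an exact permutation test. Scripts were tested on simulated counts. Named were all members and, of each list, up to 4 genes past the threshold with the lowest adjusted p, with Col1a1 and Pdgfra always, and the 8 genes most like the members in pattern. Other genes were named after their values were seen. Alternatives covered scaling, filter, test (DESeq2 1.42.0, limma voom), threshold, prior count, the replicate block and each sample left out. The replicates are separate mice, and their counts differed by more than sampling noise, with a chi-square per degree of freedom of 3.71 to 8.11 in the 6 Control pairs and 7.92 to 181 in the 15 LLC pairs. The authors' small RNA data were not analysed here, and 1 of the marker lists is not reported here.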

Additional observations from a re-analysis of the deposited data

Results flagged for a closer look

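For 35 measures in both groups, 70 sets of samples in all, the highest and the lowest sample were examined by a gap ratio, the distance to the next sample over the range of the set. Chance puts the ratio past its 95% critical value in about 5% of sets, or 3.5 here, and 5 were past it.

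LLC 1 was the sample in 3 of the 5. Its Scx level relative to Pdgfra was -2.26 on the log2 scale, against -0.18 to 0.66 in the other LLC samples (gap ratio 0.711). Its sum of genes on the muscle side of the junction was 11063 CPM, against 6756 to 8013 (gap ratio 0.708). Its sum of fast fibre markers was 66855 CPM, against 90184 to 103739 (gap ratio 0.632).

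LLC 2 had the highest Cilp2 of its group, 0.169 CPM from 3 reads, against at most 0.0579 CPM in the others (gap ratio 0.658). Control 4 had the lowest Thbs4 relative to Pdgfra, 2.50 on the log2 scale against 2.94 to 2.99 in the other Control samples (gap ratio 0.889).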

How the results depend on the processing

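The members' low counts set the limits here, since most lie within a few reads of the detection limit in LLC and their folds depend on the prior count. The number of genes past the threshold, 715, was 1572 with an unadjusted p, 475 with at least 10 counts in every sample, 158 without Control 2 and 3, 354 without these and LLC 1 (both chosen after seeing the data), and 415 to 966 with each sample left out in turn. Members lower in LLC numbered 5. With at least 10 counts in every sample only Thbs4 was left and passed (1), and without Control 2 and 3 there were 2. Each sample left out gave 4 to 5, the lost call being Comp. Other tendon matrix genes lower went from 14 to 8 without Control 2 and 3. Relatives lower went from 5 to 3 with at least 10 counts in every sample and in both of the analyses chosen later, and to 3 to 6 with each sample left out. On the muscle side of the junction 1 gene was lower with an unadjusted p. Signals lower were 2 with upper-quartile factors and 1 to 2 with each sample left out. Signals higher were 0 with at least 10 counts in every sample, with limma voom and in both later analyses, and 0 to 1 with each sample left out. Members higher relative to Col1a1 were 5 without a filter, where Kera and Mkx joined, and 1 with at least 10 counts in every sample. Relative to Pdgfra, 0 were lower and 0 higher with at least 10 counts in every sample, 0 were higher without Control 2 and 3, and 0 to 1 were higher with each sample left out.

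Some values changed sign. With a prior count of 0.5 the differences from Col1a1 were -0.73 for Tnmd, -0.19 for Chad and -0.35 for Cilp2, and the prior count itself sets these. The log2 fold change of Scx was 0.048 without Control 1, 0.15 without LLC 1 (-0.30 to 0.15 with each sample left out) and 0.033 without Control 2, Control 3 and LLC 1. That of mt-Tw was -0.065 without Control 3, -0.0097 without LLC 2, -0.088 without LLC 3 (-0.088 to 0.14 with each sample left out) and -0.066 without Control 2 and 3. Thbs4 relative to Pdgfra was 0.079 without Control 2, Control 3 and LLC 1. The cause was not tested. None of these values passed the threshold on either side.

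The replicate numbers belong to different mice in the groups, and same-numbered samples did not deviate together, with correlations of -0.029, 0.0093, -0.081 and 0.126. Of the 4 numbered pairs, 1 Control and 1 LLC sample were closest to their own number. With the number as a replicate block, in which LLC 5 and LLC 6 have no partner, 112 genes passed, with 1 member lower (Cilp2), 8 other tendon matrix genes lower, 3 relatives lower, and 0 signals lower or higher. Tnmd (-3.35, adjusted p = 0.0833), Chad (-3.67, 0.0833), Thbs4 (-1.53, 0.151) and Comp (-1.65, 0.210) did not pass edgeR's test there, against -3.91, -3.32, -1.54 and -1.91 without the block.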
